A study of Homo sapiens with 6 samples.

Results

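The long arm of chromosome 1 is described here through the peaks of an RNA immunoprecipitation (RIP-seq) of the splicing factor SF3B4 in HEK293T cells. RIP-seq captures a protein with an antibody and sequences the RNA that comes with it. A peak was taken as a member when its midpoint lay on chromosome 1 from 145000000 to 249250621 (hg19), which is 104 Mb. The 4 deposited peak lists hold 181131 peaks in all, and 9131 of them met this rule. They comprise 464 of 10960 peaks of the RIP-1 mRNA list, 599 of 10280 of the RIP-2 mRNA list, 1052 of 25797 of the RIP-1 NotExon list and 7016 of 134094 of the RIP-2 NotExon list. The short arm up to position 120000000 served as the region for comparison, with 9310 peaks on 120 Mb.

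The study made 6 libraries of wild-type HEK293T, a human line of embryonic kidney origin with the SV40 large T antigen. The groups were Anti-SF3B4, IgG and Input, with 1 library of each in the experiments RIP-1 and RIP-2, and no genotype or treatment set them apart. Peaks were deposited per experiment in 2 lists, and the sources used here do not say what the names mRNA and NotExon stand for; the latter is called the non-exon list below. The IgG and Input libraries contribute through the peak calls at most, which of them served as control of the call is unknown, and library depth is unknown.

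SF3B4 belongs to SF3b, the module of the U2 small nuclear ribonucleoprotein that binds the branch site of an intron before splicing. Because the branch site is intronic, RNA that is still unspliced is a natural partner of the complex. METTL16, named with SF3B4 in the title of the series, is a methyltransferase that places N6-methyladenosine on RNA. The long arm of chromosome 1 carries the gene of SF3B4 itself, and it is an arm for which gains of copies have been reported in HEK293 lines. Copy number was not measured in these data, and its part in any density below was not tested.

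Each list is a single call, so densities have no error across replicates and no test was run between arms or experiments. The intervals below are 95% intervals for counting error alone, exact Poisson for a density, exact binomial for a ratio of counts and Wilson for a share. They treat peaks as independent, which neighbouring peaks of one transcript are not. No annotation or sequence of hg19 was used here, so peaks are given by position without a gene name, and whether one lies in an exon, an intron or a UTR was not examined.

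By number of peaks as deposited, the RIP-2 long arm was denser than the short arm in both kinds of list, while in RIP-1 it was not. The RIP-2 mRNA list held 5.75 peaks per Mb on the long arm (5.29 to 6.22) and 4.17 on the short arm (3.81 to 4.55), a ratio of 1.38 (1.22 to 1.56). The RIP-2 non-exon list held 67.3 peaks per Mb on the long arm (65.7 to 68.9) and 57.8 on the short arm (56.4 to 59.2), a ratio of 1.16 (1.13 to 1.20). With peaks within 20 kb merged these ratios were 1.26 (1.09 to 1.45) for the mRNA list and 1.02 (0.955 to 1.096) for the non-exon list. Both long-arm values ranked first when the 2 arms were set beside the other chromosomes except Y, 24 values in all. The RIP-1 mRNA list had the opposite order, with 4.45 peaks per Mb on the long arm (4.05 to 4.87) and 5.06 on the short arm (4.66 to 5.48). Its ratio was 0.880 (0.778 to 0.995). With its peaks merged within 1 kb the ratio was 0.899 (0.794 to 1.02), and within 20 kb 0.978 (0.840 to 1.14). By bases covered the ratio turned to 1.055, with 2.42 kb per Mb on the long arm and 2.29 on the short arm. For the RIP-1 non-exon list the densities were 10.1 (9.49 to 10.7) and 10.6 (9.99 to 11.2), and the interval of their ratio of 0.955 reached from 0.879 to 1.04. In RIP-1 the long arm took rank 6 by its mRNA list and rank 4 by its non-exon list, behind chromosomes 19 and 17 and the short arm in both. Other chromosomes were taken with their centromeres and other unsequenced stretches, which both arms largely leave out, so these ranks favour the arms.

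These ratios depend on which part of the short arm is set against the long arm. Its first 30 Mb held 7.93 RIP-1 mRNA-list peaks per Mb, against 4.10 on its other 90 Mb. For RIP-2 non-exon peaks the order was the reverse, with 33.2 against 66.0 per Mb. Without them the ratio of the RIP-1 mRNA list turned to 1.09 (0.945 to 1.25), and that of the RIP-2 non-exon list came to 1.02 (0.985 to 1.06). The ratio of the RIP-2 mRNA list stayed at 1.38 (1.21 to 1.58). Against all autosomes other than chromosome 1, the long arm was denser in every list. That ratio was 1.23 (1.12 to 1.35) for the RIP-1 mRNA list, 1.74 (1.60 to 1.89) for the RIP-2 mRNA list, 1.20 (1.13 to 1.28) for the RIP-1 non-exon list and 1.59 (1.55 to 1.62) for the RIP-2 non-exon list. The lengths of those autosomes include centromeres and other unsequenced stretches, while both arms leave out the stretch between them. This unlike measure of length raises the ratios against the autosomes by an amount that was not examined.

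Gene number differs between the arms as well. In the RefSeq gene table of GRCh38.p14, another build that was used only for the order of genes, 973 protein-coding genes lie beyond the centromere and 1088 before it, a ratio of 0.894. The same ratio was 0.848 for genes of long noncoding RNA and 0.924 for all genes. Genes were counted on all of each side of the centromere, while peaks between positions 120000000 and 145000000 of hg19 were left out. The number of long-arm peaks over short-arm peaks was 0.764 and 1.20 in the mRNA lists of RIP-1 and RIP-2, and 0.830 and 1.01 in their non-exon lists. The mRNA lists of the experiments therefore lay on either side of each of these ratios of gene numbers.

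**Figure D1:**
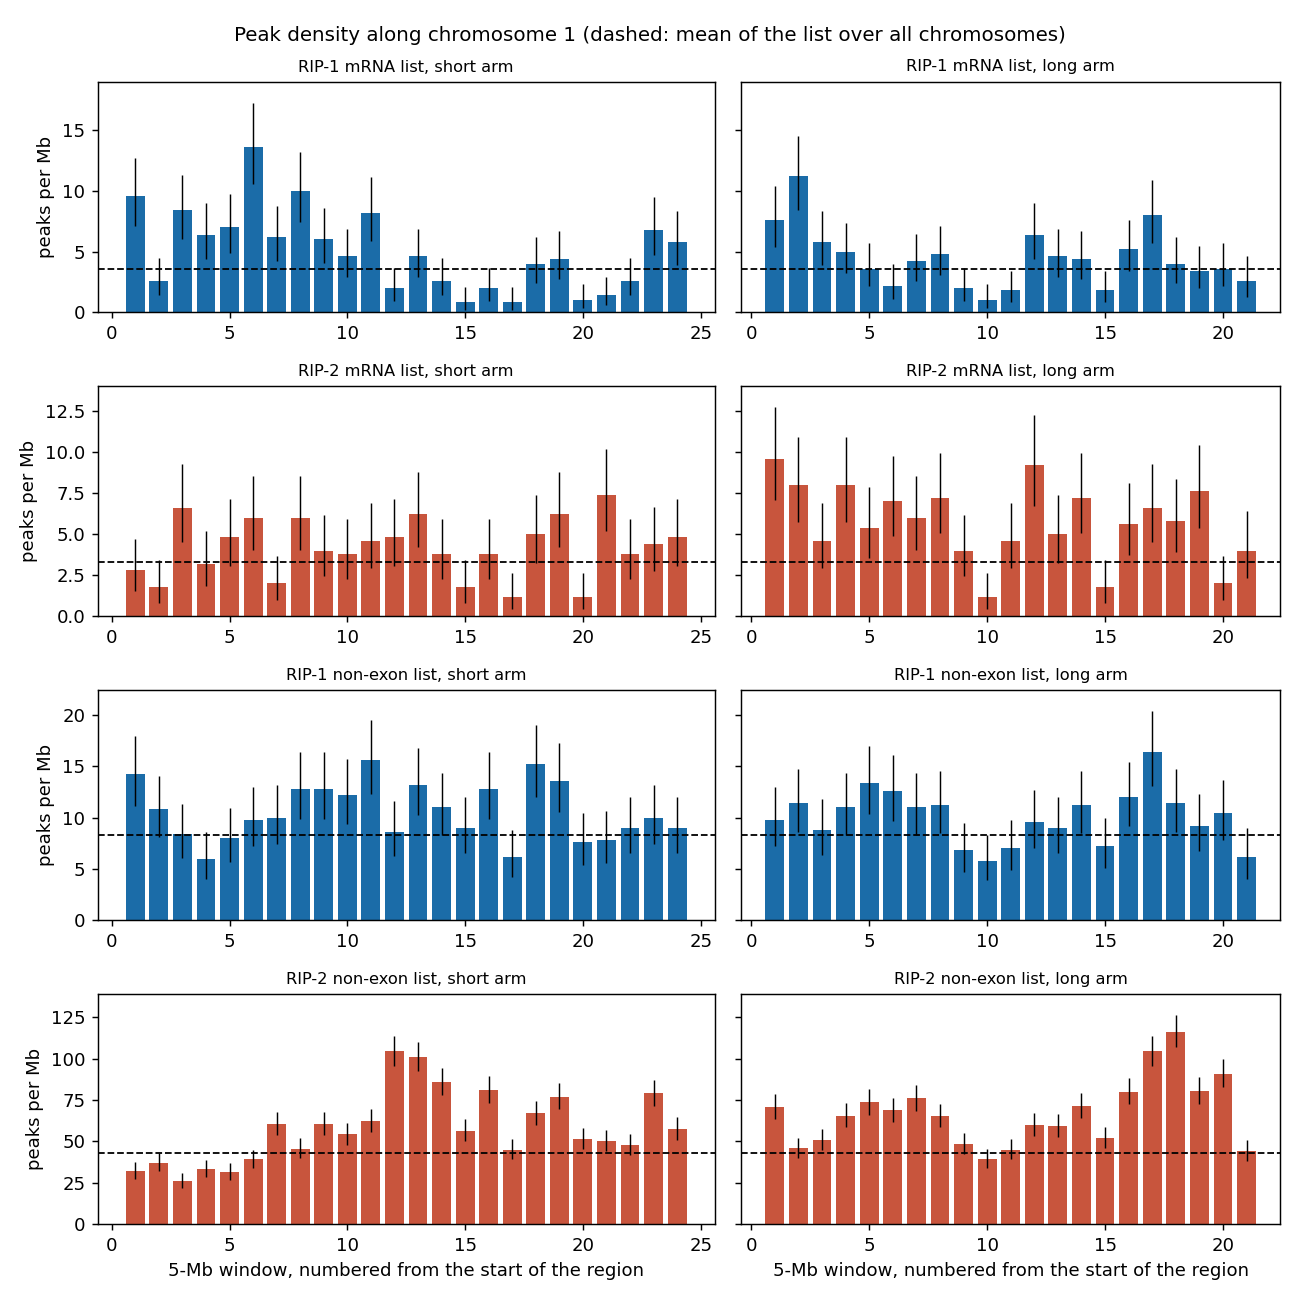
Peaks per Mb in windows of 5 Mb along the short arm (24 windows) and the long arm (21 windows, the last one shorter) of chromosome 1, 1 row per list, with 95% exact Poisson intervals; the dashed line is the mean of the list over all chromosomes. The RIP-2 non-exon list climbs to 116 peaks per Mb towards the end of the long arm, and each list has its long-arm minimum in window 10.

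Along the long arm, density rose and fell between neighbouring windows, and the densest window of each experiment differed between the kinds of list. In the RIP-1 mRNA list, windows of 5 Mb held from 1 to 11.2 peaks per Mb, with a median of 4.20. Its densest windows were those from 150 to 155 Mb (11.2 per Mb), 225 to 230 Mb (8.0) and 145 to 150 Mb (7.60). The RIP-2 mRNA list ranged from 1.20 to 9.60 per Mb with a median of 5.80. It was densest from 145 to 150 Mb (9.60) and from 200 to 205 Mb (9.20), followed by 150 to 155 Mb and 160 to 165 Mb at 8.0 each. Both mRNA lists thus had the start of the arm, nearest to the centromere, among their densest stretches. That part of the arm is known for segmental duplications, and how reads that match several copies were placed is not given.

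The densest window of each non-exon list lay between 225 and 235 Mb. In RIP-1 the windows from 225 to 230 Mb, 165 to 170 Mb and 170 to 175 Mb held 16.4, 13.4 and 12.6 non-exon peaks per Mb, against a range over the arm of 5.80 to 16.4 and a median of 10.4. RIP-2 had 116 per Mb from 230 to 235 Mb, 104 from 225 to 230 Mb and 91.0 from 240 to 245 Mb, against a range of 39.4 to 116 and a median of 65.6. The window from 230 to 235 Mb was the densest of all 593 windows of the genome for this list. The window beside it, from 225 to 230 Mb, lay at the 98.5th percentile of the genome in RIP-1 and at the 99.7th in RIP-2. At a resolution of 1 Mb, RIP-2 peaked from 232 to 233 Mb with 139 non-exon peaks, 3.21 times the mean of the list, while RIP-1 peaked from 180 to 181 Mb with 24, 2.88 times its mean.

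All 4 lists shared their sparsest window, from 190 to 195 Mb. There RIP-1 had 1 mRNA-list and 5.80 non-exon peaks per Mb, and RIP-2 had 1.20 and 39.4. The next sparsest were 195 to 200 Mb and 215 to 220 Mb for the RIP-1 mRNA list (1.80 each) and 215 to 220 Mb for the RIP-2 mRNA list (1.80). For the non-exon lists it was the last window, which ends at 249.25 Mb, where RIP-1 had 6.12 per Mb and RIP-2 had 44.0.

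Around this minimum lay the longest stretch of the arm without any mRNA-list peak, from 186863343 to 192982147, which is 6.12 Mb. Both mRNA lists had 0 peaks there because the stretch was chosen for that, so no interval is given for them. The RIP-1 non-exon list had 31 peaks in it, 5.07 per Mb (3.44 to 7.19) or 0.608 times the mean of the list. The RIP-2 non-exon list had 289, 47.2 per Mb (41.9 to 53.0) or 1.09 times its mean. Median fold enrichment over the control, as deposited, was 6.85 for RIP-1 peaks and 8.19 for RIP-2 peaks there, beside 6.36 and 8.19 over the whole long arm. The stretch was therefore below average for non-exon peaks in RIP-1 and close to average in RIP-2. It was chosen after its values were seen.

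Compared with the genome, the long arm had many dense windows in RIP-2, while in RIP-1 their number was near the genome share. Of its 21 windows, 9 were among the densest 10% of the genome in the RIP-2 mRNA list and 10 in the RIP-2 non-exon list. In RIP-1 the numbers were 3 and 2. Over the genome, 60 of 593 windows were counted as dense in each RIP-1 list, and 63 and 61 in the RIP-2 mRNA and non-exon lists. For the 24 windows of the short arm they were 2 and 6 in RIP-2, and 5 and 5 in RIP-1. In the RIP-2 non-exon list, 20 of the 21 long-arm windows exceeded the mean of the list, and in the RIP-2 mRNA list 18 did. In RIP-1, 16 windows did so by non-exon peaks and 14 by mRNA-list peaks.

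**Figure D2:**
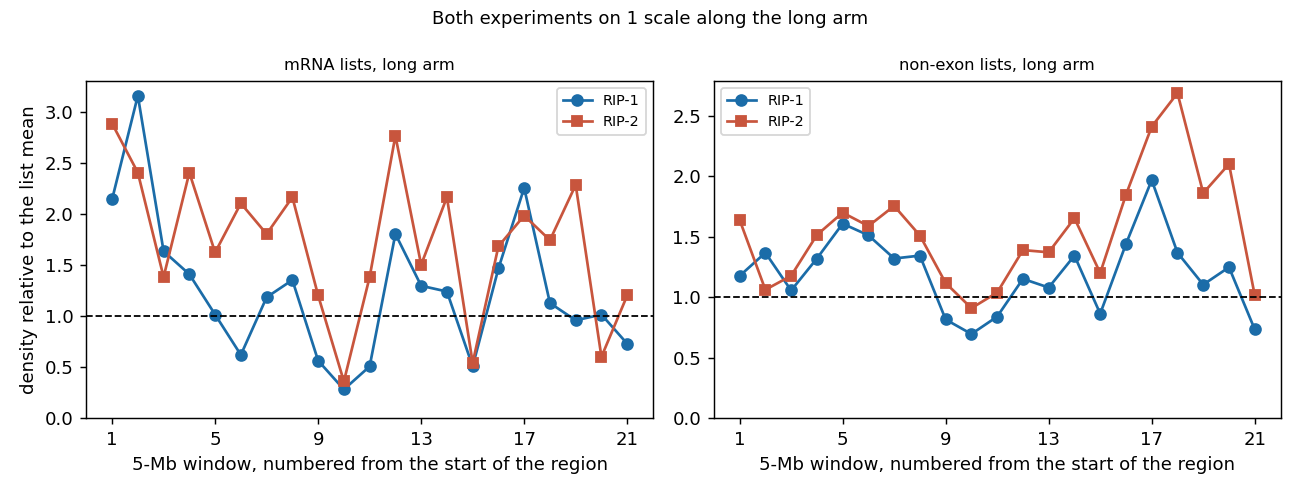
Density in the 21 long-arm windows of 5 Mb divided by the mean density of the same list over all chromosomes, for RIP-1 (circles) and RIP-2 (squares), mRNA lists on the left and non-exon lists on the right; the dashed line at 1 is the mean of a list. RIP-2 lies above RIP-1 in 17 windows by the mRNA lists and in 20 by the non-exon lists.

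Dividing each density by the mean of its list puts the experiments on 1 scale, because the RIP-2 non-exon list is several times longer. On this scale the long arm held 1.38 times as much of the RIP-2 as of the RIP-1 mRNA list (1.22 to 1.56), and 1.28 times as much of the non-exon list (1.20 to 1.37). With peaks within 20 kb merged the non-exon ratio turned to 0.868 (0.796 to 0.948). For the short arm the same ratios were 0.878 (0.779 to 0.990) and 1.052 (0.991 to 1.12). The relative density of RIP-2 exceeded that of RIP-1 in 17 of 21 long-arm windows for the mRNA lists and in 20 of 21 for the non-exon lists, against 11 and 14 of 24 short-arm windows. Most single windows hold too few peaks to separate the experiments, since the interval of the ratio lay above 1 in 4 long-arm windows of each kind and below 1 in 0.

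The excess of RIP-2 was largest from 170 to 175 Mb for the mRNA lists, with 35 peaks against 11 and a ratio of relative densities of 3.39 (1.68 to 7.40). From 195 to 200 Mb there were 23 against 9, a ratio of 2.72 (1.21 to 6.69). RIP-1 was relatively denser from 240 to 245 Mb, with a ratio of 0.592 (0.244 to 1.35), and from 150 to 155 Mb, with 0.762 (0.494 to 1.16), though both intervals include 1. For the non-exon lists the ratio was highest from 230 to 235 Mb, where 582 RIP-2 peaks stood against 57 of RIP-1 (ratio 1.96, 1.49 to 2.63). It was 1.69 (1.24 to 2.34) from 235 to 240 Mb. The lowest ratios were 0.776 (0.579 to 1.06) from 150 to 155 Mb, the only long-arm window under 1, and 1.05 (0.801 to 1.40) from 170 to 175 Mb.

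As a description without a test, the order of the windows was more alike between experiments than between kinds of list. Over the 21 long-arm windows the 2 mRNA lists gave a Spearman rho of 0.677 (Pearson r of 0.645), and the non-exon lists a rho of 0.694 (r of 0.711). Within RIP-1 the mRNA and non-exon lists gave a rho of 0.504 (r of 0.532), and within RIP-2 0.326 (r of 0.240). Without the 2 windows farthest from the median of the first list, the rho values were 0.666, 0.595, 0.400 and 0.143. On the 24 short-arm windows the corresponding rho values were 0.380, 0.437, 0.301 and 0.141. Windows share the gene and base content of a region and are not independent samples.

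The share of mRNA-list peaks in the whole call was above that of the genome in RIP-2 and within counting error of it in RIP-1. On the long arm it was 30.6% of 1516 RIP-1 peaks (28.3 to 33.0) and 7.87% of 7615 RIP-2 peaks (7.28 to 8.49). Over all chromosomes it was 29.8% and 7.12% (6.99 to 7.25), and on the short arm 32.4% (30.3 to 34.5) and 6.72% (6.18 to 7.32). Against the short arm the intervals overlapped in both experiments, barely so in RIP-2.

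**Figure D3:**
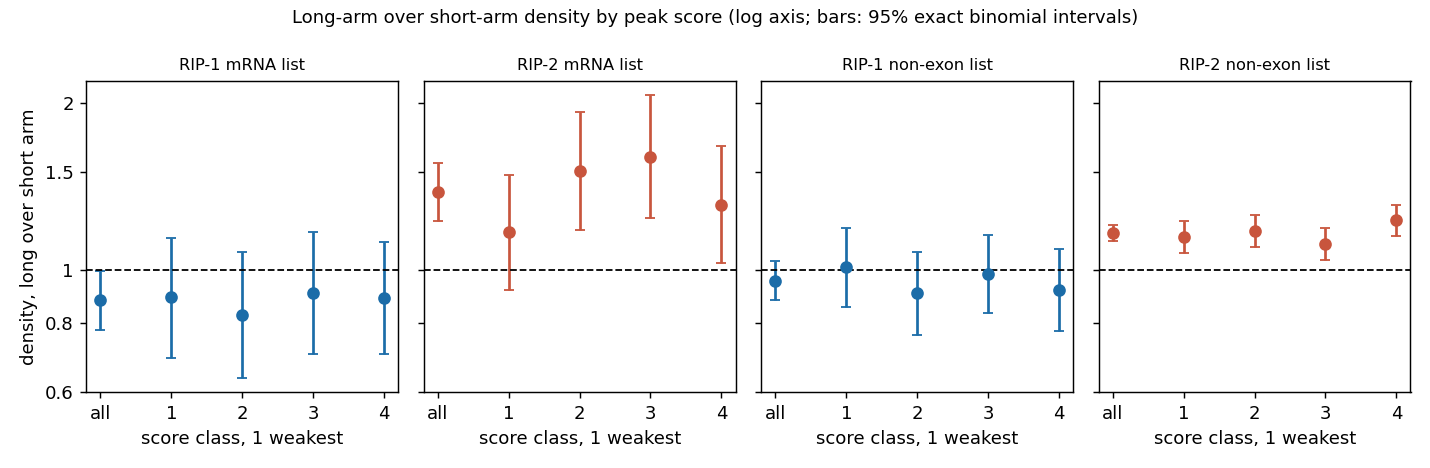
Density of the long arm divided by that of the short arm for each list, over all peaks and over each of 4 equal classes of the list by deposited score (class 1 weakest), on a log axis with 95% exact binomial intervals; the dashed line marks equal density. RIP-2 values lie above 1 in every class, from 1.11 to 1.60, and RIP-1 values between 0.829 and 1.01.

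In RIP-2 the ratio of long-arm to short-arm density was above 1 among weak and strong peaks, though not clearly so in the weakest class of the mRNA list. The authors' score looks like the negative log10 p-value, multiplied by 10, that MACS writes; MACS is the peak caller whose prefix the peak names carry. Dividing each list into 4 equal classes by this score gave long-over-short ratios from 1.17 to 1.60 for the RIP-2 mRNA list and from 1.11 to 1.23 for the RIP-2 non-exon list. The interval of the weakest RIP-2 mRNA class included 1 (0.919 to 1.48), and those of the other 7 RIP-2 classes did not. The RIP-1 mRNA list gave 0.829 to 0.908 and the RIP-1 non-exon list 0.907 to 1.01, and each of these 8 intervals included 1. By width, the ratio of the RIP-2 non-exon list was 1.09 (1.01 to 1.17) in the narrowest of 4 classes and 1.29 (1.21 to 1.37) in the widest. In the RIP-1 non-exon list the widest class reached 1.14 (0.974 to 1.33), the other 3 lying between 0.827 and 0.964. The RIP-2 mRNA list ran the other way, with 1.62 (1.27 to 2.07) among its narrowest intervals and 1.22 (0.967 to 1.55) among its widest.

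Typical peaks of the arm were like those elsewhere in strength. Median scores on the long and short arm were 83.0 and 81.2 in the RIP-1 mRNA list, 79.4 and 77.7 in the RIP-2 mRNA list, 67.4 and 67.3 in the RIP-1 non-exon list and 81.4 and 81.2 in the RIP-2 non-exon list. The median fold enrichment of non-exon peaks was 6.36 against 6.45 in RIP-1 and 8.19 on both arms in RIP-2. Median widths of non-exon peaks were 762 against 724 bp in RIP-1 and 595 against 584 bp in RIP-2. Those of the mRNA lists were 232 against 226 bp and 161 against 171 bp. By bases covered, non-exon peaks took up 10.3 kb of each Mb of the long arm by the RIP-1 list and 46.6 kb by the RIP-2 list.

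By the false discovery rate (FDR) in the non-exon lists, few peaks stood out from the control, on the long arm as over all chromosomes. An FDR of 5% or less was listed for 7 of 1052 RIP-1 peaks (0.665%; 0.946% on the short arm) and for 0 of 7016 RIP-2 peaks, whose lowest value was 68.3%. An FDR of 100% was listed for 95.5% of the RIP-1 peaks (94.1 to 96.6) and 42.5% of the RIP-2 peaks (41.4 to 43.7). On the short arm these shares were 93.9% (92.4 to 95.04) and 41.7% (40.5 to 42.8). Over all chromosomes they were 94.1% and 41.6%, and an FDR of 5% or less was listed for 0.678% of RIP-1 and 0 RIP-2 peaks. Every peak in the dense RIP-2 non-exon windows above therefore has a listed FDR of 68.3% or more. For RIP-1 the FDR was not examined per window, and the mRNA lists carry none.

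Non-exon peaks of RIP-2 were closely packed on the arm, with a median distance of 7.45 kb between neighbours and 58.5% of the distances at 10 kb or less. The same values were 8.59 kb and 54.6% on the short arm. RIP-1 non-exon peaks lay 52.8 kb apart on the long arm at the median. The longest stretch without a non-exon peak was 0.273 Mb in RIP-2, from 148243837 to 148516960, and 1.48 Mb in RIP-1, from 188485799 to 189969785.

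The mRNA lists carry a strand, and on the long arm the experiments leaned to opposite strands. In RIP-1, 210 of 464 peaks were on the plus strand (45.3%, 40.8 to 49.8), and in RIP-2, 352 of 599 (58.8%, 54.8 to 62.6). On the short arm RIP-1 leaned to the plus strand with 57.7% (53.7 to 61.5), and RIP-2 had no clear lean with 49.4% (45.0 to 53.8), while all chromosomes together had 51.2% and 51.8%. Several peaks of 1 transcript share its strand, so peaks were also joined into chains wherever same-strand neighbours were at most 20 kb apart. By chains the RIP-1 share came to 49.2% of 317 (43.8 to 54.7) and the RIP-2 share to 59.5% of 410 (54.7 to 64.2). Short-arm chains gave 55.5% (50.4 to 60.5) and 51.6% (46.6 to 56.6). The long-arm lean of RIP-1 was thus within counting error once neighbours were joined, and that of RIP-2 was not.

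Chains of 5 or more mRNA-list peaks, which look like several segments of 1 transcript, stood at different places in the experiments. RIP-1 had 5 of them on the long arm with 35 peaks (7.54% of its long-arm peaks), 28 of these on the minus strand. RIP-2 had 7 with 53 peaks (8.85%). The short arm had 15 such chains by the RIP-1 list and 3 by the RIP-2 list, the opposite order. The longest chain of the arm was in RIP-2, on the plus strand from 214791915 to 214837734. It held 11 peaks whose widths add up to 5158 bp and whose scores run from 107 to 3100. The next longest RIP-2 chains held 9 peaks each, on the plus strand from 179972308 to 180022301 and on the minus strand from 197053341 to 197115799. In RIP-1 the longest held 8 peaks each, both on the minus strand, from 148304401 to 148340447 and from 150190779 to 150208504. The first of these and a minus-strand chain of 7 peaks (148256692 to 148280742) lie near the start of the arm, known for segmental duplications. How reads that match several copies were placed there is not given. These chains were singled out after their values were seen.

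None of the 5 strongest long-arm peaks of either mRNA list was matched by the other experiment, as was so for most peaks of these lists. Over all chromosomes, 6.41% of RIP-1 and 6.91% of RIP-2 mRNA-list peaks overlapped one of the other experiment. In RIP-1 the highest score, 3108, belonged to a minus-strand interval from 153957459 to 153957668, the sixth of its whole list. It was followed by 156711898 to 156713247 (minus strand, score 3100), 154988695 to 154991001 (plus, 2903), 244216506 to 244220774 (plus, 2700) and 235272657 to 235275423 (minus, 2485). The nearest RIP-2 mRNA-list interval was 16651 bp from the first of these and 508379 bp from the second. All but 1 of the 5 strongest RIP-2 intervals came from the chain of 11 described above. That from 214817899 to 214820743 scored 3100, a top score that 1 other peak of the whole RIP-2 mRNA list also has, and the others began at 214793997 (score 529), 214832192 (487) and 214805822 (481). The fifth lay on the plus strand from 146457897 to 146458070 with a score of 477.

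Around the strongest RIP-1 interval stood the highest fold enrichment of any RIP-1 non-exon peak. That peak, from 153953535 to 153956537, had a fold enrichment of 179 and an FDR of 2.53%, and the one from 153957731 to 153959239 had a fold enrichment of 73.4. The mRNA-list interval lies between these 2 peaks. RIP-2 had no non-exon peak within 34452 bp of the second of them. The other RIP-1 non-exon peaks were far weaker, beginning at 230441023 (fold enrichment 13.6), 187506835 (13.2) and 198457520 (12.0). Of these 5, that at 230441023 overlapped a RIP-2 peak, beside 18.1% of the whole RIP-1 non-exon list. In RIP-2 the highest fold enrichment on the arm was 28.4, from 234428152 to 234429411, with a RIP-1 peak 246 bp away. The next were at 229040655 and 232372713 with 27.95 each, and at 161635717 and 221300448 with 27.0 each, and all 5 had an FDR of 100%.

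The design compared the repeated experiments to set aside unspecific signal, so peaks found in both are of interest. Here a peak counts as shared if at least 1 bp of it falls in a peak of the matching list of the other experiment, with strands equal in the mRNA lists. Of the 464 RIP-1 mRNA-list peaks on the long arm, 39 were shared (8.41%, 6.21 to 11.3), against 6.41% of the whole list and 5.60% on the short arm (4.04 to 7.73). From the side of RIP-2, 39 of 599 were shared (6.51%, 4.80 to 8.78), against 6.91% of the whole list and 7.0% on the short arm. Both long-arm shares were within counting error of the genome. The longer RIP-2 list on this arm offers more partners to each RIP-1 peak, and its part in the higher RIP-1 share was not tested.

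Among non-exon peaks, 230 of 1052 RIP-1 peaks on the long arm were shared (21.9%, 19.5 to 24.5), against 18.1% of the whole list and 18.0% on the short arm (16.0 to 20.2). The interval of the long arm lay above the value of the whole list. From the side of RIP-2, 243 of 7016 were shared (3.46%, 3.06 to 3.92), against 3.63% of the whole list. The share of RIP-1 peaks went with the number of RIP-2 peaks in a window, with a Spearman rho of 0.395 over the 21 windows, given as a description. It ran from 8.57% from 195 to 200 Mb to 35.1% from 230 to 235 Mb, the window where RIP-2 was densest. With the RIP-2 list shortened to its strongest peaks, as many as in RIP-1, the long-arm share was 5.70% (4.46 to 7.27). The short-arm and whole-list shares were not computed with that list, so whether the long arm stays above them is unknown.

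**Figure D4:**
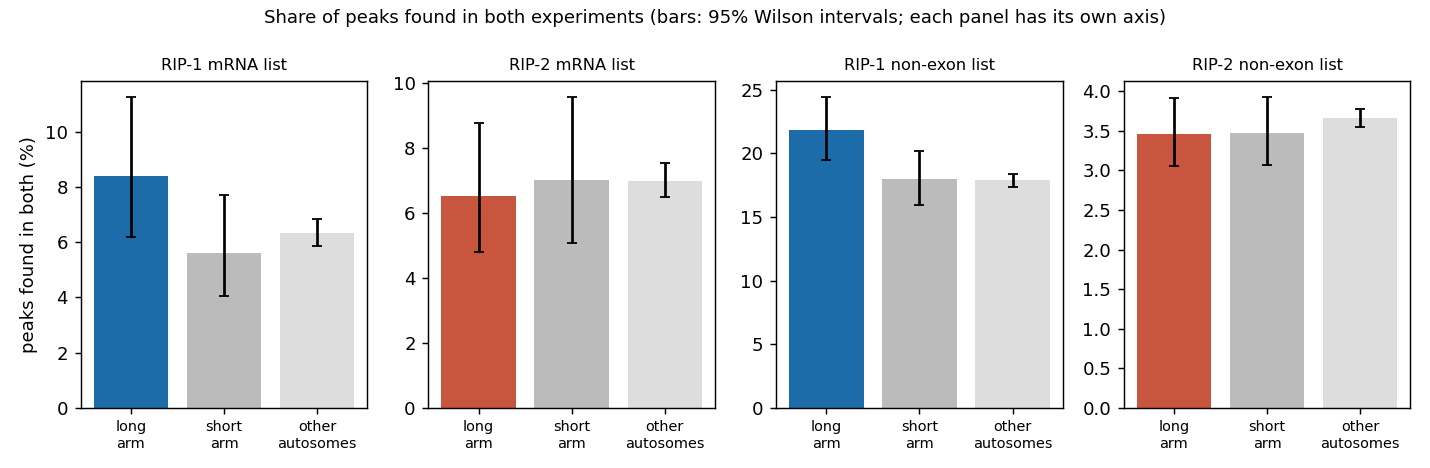
Percentage of peaks that overlap a peak of the same kind in the other experiment, for the long arm, the short arm and the autosomes other than chromosome 1, with 95% Wilson intervals, 1 panel per list and a separate axis in each. The long arm stands above the others for RIP-1 non-exon peaks (21.9% against 18.0% and 17.9%), with an interval that overlaps that of the short arm and not that of the other autosomes; the intervals overlap in the mRNA panels.

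Shared mRNA-list segments were spread over 18 of the 21 windows, with the most, 7 of 38 RIP-1 peaks, from 145 to 150 Mb. Of the 39 pairs on the long arm, 30 had both edges in common (76.9%), 32 the same start and 34 the same end, so the lists seem to be cut at common borders whose source is not given. On the short arm 21 of 34 pairs had both edges in common. Non-exon pairs had no such borders, with 0 of 230 identical and starts a median of 198 bp apart.

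Ranked by the weaker of their 2 scores, the leading 5 shared long-arm segments were of moderate strength. The first, on the plus strand from 203787697 to 203787817, scored 140 in RIP-1 and 250 in RIP-2 with the same edges in both. It was followed by 224868659 to 224868728 (plus strand, 133 and 114). A minus-strand segment from 212537945 to 212538718 in RIP-1 scored 168 and overlapped a RIP-2 segment from 212538041 with the same end and a score of 104. The last 2, both on the plus strand with identical edges, ran from 162762448 to 162762842 (114 and 100.2) and from 185143503 to 185144245 (92.0 and 256). Their score ranks ran from 1683 to 4350 among 10960 RIP-1 peaks, and from 266 to 3310 among the 10280 of RIP-2. Across the 39 pairs the scores of the experiments gave a Spearman rho of -0.0599, as a description.

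Shared long-arm peaks were narrower than unshared ones in the RIP-1 mRNA list and wider in the other lists, as over all chromosomes. There the median widths, shared against unshared, were 174 against 219 bp in the RIP-1 mRNA list and 175.5 against 159 bp in RIP-2. For non-exon peaks of all chromosomes they were 855 against 684 bp in RIP-1 and 727 against 560 bp in RIP-2. Median mRNA-list scores of all chromosomes were 69.7 against 81.0 in RIP-1 and 81.8 against 79.4 in RIP-2. In the RIP-1 mRNA list, shared long-arm peaks had a median score of 68.7 and a median width of 173 bp, against 85.9 and 242 bp for unshared ones. In RIP-2 the medians were 88.2 and 173 bp against 79.1 and 161 bp. Shared non-exon peaks were wider, with 933 against 726 bp in RIP-1 and 772 against 592 bp in RIP-2. Their fold enrichment in RIP-1 had a median of 6.04, against 6.45 for unshared peaks, and across the 230 pairs it went with that in RIP-2 with a Spearman rho of 0.286, while the scores of the same pairs gave a rho of -0.116.

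Shared non-exon peaks were rarely crowded. Of the 100-kb places on the long arm with any, 159 held 1 and 26 held 2. The highest number, 4, was found from 227800001 to 227900000, where RIP-1 had 5 and RIP-2 had 19 non-exon peaks and neither had an mRNA-list peak. The 5 places with 3 included those from 155400001 and from 167700001, where RIP-2 had 13 and 14 non-exon peaks and the mRNA lists had 0.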

How the data were processed

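The submitters' processing notes name hg19, HISAT2 2.0.4 and cutadapt 1.9.3. Peak names carry the prefix of MACS; its version, settings and control are not given. The deposited score has a floor of 50 and several peaks at exactly 3100, which looks like a cap, although some RIP-1 mRNA-list peaks score higher. The fold enrichment, a ratio over the control, and the FDR in percent were deposited by the authors in the non-exon lists without a header, so their meaning was taken from values and column order. Non-exon positions count from 1, and the counting base of the mRNA lists is unknown.

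Peaks were placed by midpoint. Other chromosomes were taken from their first base to their last peak, so their lengths and windows include centromeres and other unsequenced stretches. Python 3.11.15 with numpy 2.4.6, pandas 2.3.3 and scipy 1.17.1 was used, and the overlap and interval steps were tested on simulated data. The regions named follow a rule: the 3 densest and 2 sparsest windows of each list, the 2 largest differences in each direction, and the 5 strongest and 5 shared peaks, plus the 3 places with the most shared peaks. The arm, the windows and the rule were chosen with earlier results of these data known. Lists of genes could not be placed without an annotation of hg19 and were not used here. Alternatives covered the arms' borders, merging, score, bases covered and overlap.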

Additional observations from a re-analysis of the deposited data

How the results depend on the processing

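Of 48 alternative values, 33 stayed within the 95% interval of the value reported. Among them were the RIP-1 mRNA long-over-short ratios with peaks merged within 1 kb or 20 kb, whose own intervals included 1. The long-over-short ratio of the RIP-1 mRNA list turned to 1.055 by bases covered, 1.09 without the first 30 Mb of the short arm and 1.23 against the autosomes other than 1. Against those autosomes it also moved to 1.74 for the RIP-2 mRNA list, 1.20 for the RIP-1 non-exon list and 1.59 for the RIP-2 non-exon list. The RIP-2 non-exon ratio moved to 1.02 without the first 30 Mb of the short arm, to 1.12 without the densest window of the long arm and to 1.02 with peaks within 20 kb merged. That merging also turned the RIP-2 over RIP-1 share of non-exon peaks on the long arm to 0.868. The median distance between long-arm neighbours was 7.45 kb in RIP-2 and 52.8 kb in RIP-1, so merging joins most neighbours only in RIP-2. Its part in this reversal was not tested. The upper 50% by score lowered sharing to 3.27% among mRNA-list and 12.5% among non-exon peaks. Non-exon sharing was 15.3% with at least 50% of both peaks, 16.8% by midpoint and 5.70% with lists of equal length. These alternative shares were computed for the long arm alone, without the short arm or the whole list. For the reversals of the RIP-1 mRNA list the cause was not tested. The 20-kb merging and all alternatives to the RIP-2 over RIP-1 share were chosen after seeing the data. No paired analysis was possible because the peak calls hold no values per library. Unknown depth limits every comparison of RIP-1 with RIP-2.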
